A study of Mus musculus with 6 samples.

Results

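The genes described here are the enzymes and regulators that dispose of superoxide and peroxide, make and recycle glutathione and thioredoxin, bind metals, or belong to the NRF2 stress pathway, with a pair of NADPH oxidase subunits that make superoxide. They were taken from a list of 35 gene symbols, of which 32 had a probe set annotated to a single gene, among 22180 such genes on the array. Prdx1, Prdx5 and Prdx6 were not analysed here. The arrays hold RNA of LSK cells, marrow cells without lineage markers and with surface Sca-1 and high c-Kit that hold the blood stem cells and multipotent progenitors, hybridised to 6 Affymetrix Mouse Gene 2.0 ST arrays. The 3 WT arrays and the 3 arrays of tamoxifen-inducible Ctcf conditional knockout mice are each labelled biological replicates. All mice were male, 8 weeks old and given tamoxifen, 2 mg daily for 3 days, with cells taken 24 hours after the last dose. The design text pairs the knockout with CreER mice and the labels name the controls WT, which leaves unclear if the control mice had the recombinase. No source used here gives the promoter that drives the recombinase, the deleted exons or the number of mice behind each array. Ctcf encodes the zinc finger protein that binds insulators and the anchors of chromatin loops. Its log2 level was 8.35, 8.59 and 8.73 in WT and 7.58, 7.78 and 7.86 in the knockout. The groups did not overlap and the knockout mean was 56.7% of WT (exact two-sided permutation p = 0.1, the smallest that 3 arrays against 3 allow, and limma adjusted p = 0.104).

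Superoxide dismutases turn superoxide into hydrogen peroxide, and catalase, the glutathione peroxidases and the peroxiredoxins remove the peroxide. Glutathione and thioredoxin supply the electrons and are reduced again by glutathione reductase and thioredoxin reductase at the expense of NADPH. The transcription factor NRF2, held down by KEAP1 until oxidants or electrophiles modify it, drives many of these genes, and blood stem cells are known for low levels of reactive oxygen and for losing quiescence when these levels climb.

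No antioxidant gene passed the test in the knockout, and the members with the lowest p-values were higher in it. Glutathione reductase Gsr and the glutathione synthesis subunit Gclm had the lowest p-values, at 1.62 and 1.39 times WT, followed by the peroxidase Gpx4 and the metallothionein Mt1, with log2 differences of 0.38 and 0.68. By size of difference Mt1 stood second to Gsr, at 0.69, but its groups overlapped. By limma with Benjamini-Hochberg adjustment over all 22180 genes, 0 of the 32 were called at an adjusted p under 0.05, where 0.0721% of all genes were called. At an unadjusted p under 0.05 by limma there were 8 of 32 members (25%), all higher in the knockout, beside 8.11% of all genes in either direction and 5.03% higher. They were Gsr, Gclm, Gpx4, Mt1, Ncf1, Nqo1, Sod1 and Gpx7. The groups did not overlap for 10 of 32 members (31.3%), all higher in the knockout, beside 13.3% of all genes and 7.96% in that direction. A positive difference was found for 28 of 32 members (87.5%), beside 54.7% of all genes. The median difference was 0.16 on the log2 scale, beside 0.018 over all genes. The members were chosen with earlier results of these data known, so these shares describe the list and are not independent evidence of its direction. Without WT replicate 2 the 8 members at an unadjusted p under 0.05 became 3 (9.38%, beside 6.23% of all genes in that fit), the 28 positive differences 22 and the median 0.11. Without knockout replicate 2 there were also 3 at that p (9.38%, beside 6.81% of all genes), with 26 positive differences and a median of 0.19. Both of these counts are near the background. In at least 1 of the 6 fits with 1 array left out, the differences of 25 of the 32 members shrank by over 1.5 times or changed sign, and the other 7 were Gclm, Gpx4, Gpx7, Gsr, Mt1, Ncf1 and Nqo1.

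**Figure D1:**
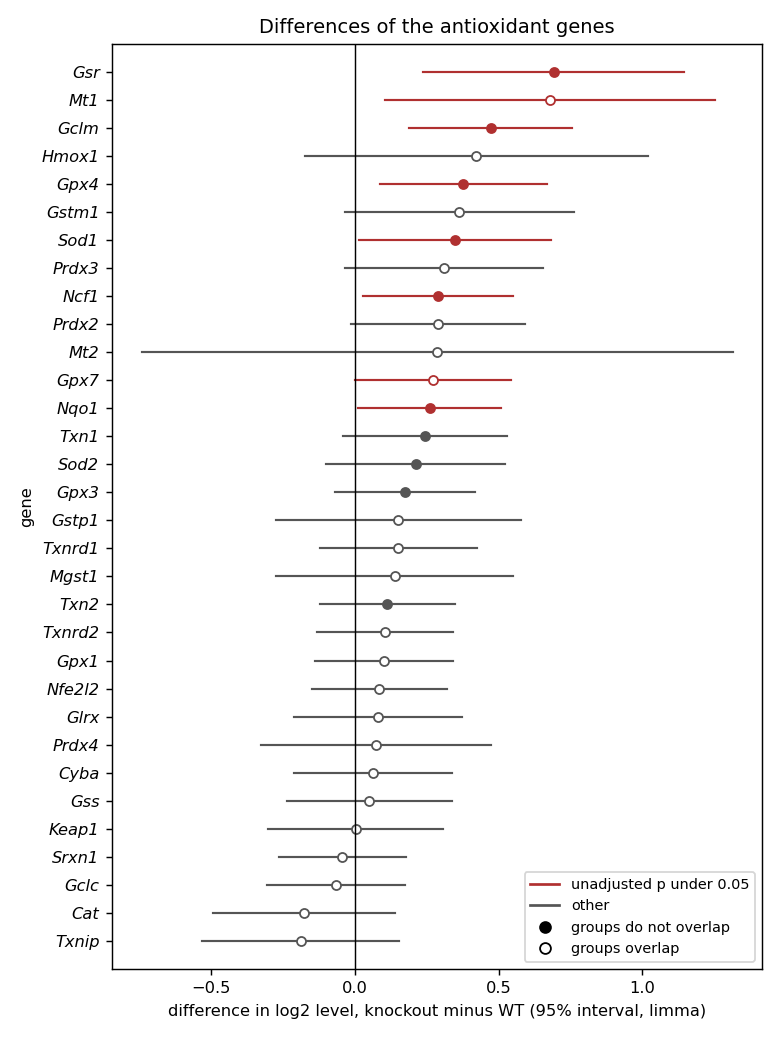
Difference in log2 level, knockout minus WT, for each of the 32 antioxidant genes, sorted by size, with the 95% interval of the limma fit (3 arrays per group). Red marks an unadjusted p under 0.05 and filled points mark groups that do not overlap. Gsr has the largest difference, 0.69, and Txnip the most negative, -0.19.

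The windows upstream of 4 members are shown because Gclm, Sod1 and Mt1 are among the 8 members with low p-values, Mt2 is the neighbour of Mt1, and all carry letters that stress-responsive factors are known to read. The letters TGACNNNGC are the core of the antioxidant response element, to which NRF2 binds with small MAF proteins. The letters TGCACNC and TGCGCNC are the core of the metal response element, to which the zinc sensor MTF1 binds. Both were sought on both strands from 250 bases before to 50 bases after the annotated start in RefSeq's promoter table (build GRCm38.p6). The 250 bases before the start are printed, 5′ to 3′ on the gene's strand, with both elements in capitals. The windows are at chr3:122245307-122245556 for Gclm, chr16:90220512-90220761 for Sod1, chr8:94178839-94179088 for Mt1 and chr8:94172368-94172617 for Mt2, all on the plus strand.
Gclm: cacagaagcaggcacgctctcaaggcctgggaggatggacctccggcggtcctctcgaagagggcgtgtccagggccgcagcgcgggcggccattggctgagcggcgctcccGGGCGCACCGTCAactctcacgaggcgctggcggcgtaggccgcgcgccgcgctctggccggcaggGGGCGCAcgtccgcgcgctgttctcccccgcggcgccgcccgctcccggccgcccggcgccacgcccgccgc
Sod1: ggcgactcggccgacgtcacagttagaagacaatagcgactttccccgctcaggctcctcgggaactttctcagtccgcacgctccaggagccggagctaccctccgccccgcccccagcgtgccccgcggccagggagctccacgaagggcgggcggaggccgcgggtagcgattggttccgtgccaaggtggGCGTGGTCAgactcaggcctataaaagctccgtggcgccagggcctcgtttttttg
Mt1: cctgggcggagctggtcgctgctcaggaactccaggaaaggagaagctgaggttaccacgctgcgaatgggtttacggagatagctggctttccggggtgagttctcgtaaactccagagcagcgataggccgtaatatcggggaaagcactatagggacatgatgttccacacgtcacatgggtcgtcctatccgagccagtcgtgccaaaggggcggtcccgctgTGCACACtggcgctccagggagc
Mt2: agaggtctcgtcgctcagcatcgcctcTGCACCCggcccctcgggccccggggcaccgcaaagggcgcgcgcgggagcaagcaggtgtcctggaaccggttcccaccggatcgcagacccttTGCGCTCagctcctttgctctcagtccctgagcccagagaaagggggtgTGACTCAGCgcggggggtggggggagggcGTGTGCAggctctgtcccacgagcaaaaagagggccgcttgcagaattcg
In Gclm an antioxidant core on the opposite strand overlaps a metal element core, and further metal cores begin 72 bases before the start and 27 bases after it. In Sod1 the antioxidant core lies 56 bases before the start. The antioxidant core of Mt2 contains the AP-1 letters TGACTCA. The metal element cores of Mt2 begin 223, 128 and 50 bases before the start and 4 bases after it, and those of Mt1 begin 23 bases before and 2 and 20 bases after it. The table held promoters for 29 of the 32 measured members; Gclc, Gsr and Hmox1 were not among them. The antioxidant core was in a promoter of 7 of these 29 genes (24.1%), namely Gclm, Mgst1, Mt2, Nfe2l2, Sod1, Srxn1 and Txnrd1, and in one of 14.0% of 27025 genes. The metal core was in 10 of 29 (34.5%) and in 28.2% of genes. The median difference was 0.15 over the 7 members with an antioxidant core and 0.16 over the 22 without one, and it was 0.19 over the 10 with a metal core and 0.15 over the 19 without. An unadjusted p under 0.05 by limma was found for 2 of the 7 with an antioxidant core and 5 of the 22 without. For the metal core it was found for 3 of the 10 with it and 4 of the 19 without. Over all genes the share at that p was 8.11%. The small groups with and without a core were not compared by a test. The AP-1 letters TGANTCA were in 4 of the 29, Glrx, Gstp1, Mt2, Srxn1, and in 8.97% of genes. The core of the CTCF motif, sought on both strands, was in 1 of the 29, Gstm1, and in 2.82% of genes by a loose form that leaves its variable positions open. By the degenerate consensus, a stricter form tried after the loose one had been counted, it was in 0 of the 29 and in 0.636% of genes. A match of letters is a description and no site of binding.

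Of the superoxide dismutases and catalase, Sod1 had a low p, and Cat had a negative difference. The copper-zinc dismutase of the cytosol, Sod1, was at 11.60, 11.28 and 11.82 in WT and 11.83, 11.99 and 11.93 in the knockout on the log2 scale. All knockout arrays lay above all WT arrays, the nearest pair being WT replicate 3 and knockout replicate 1, and WT replicate 2 lay far below the rest. The log2 difference was 0.35 (SE 0.15, limma adjusted p = 0.596), and 0.20 without WT replicate 2. The manganese dismutase of mitochondria, Sod2, was at 9.55, 9.15 and 9.61 in WT and 9.67, 9.64 and 9.64 in the knockout. Its knockout arrays were within 0.031 of each other, just above WT replicate 3, while WT replicate 2 was again the low one. The difference of Sod2 was 0.21 (95% interval -0.099 to 0.52, limma adjusted p = 0.757), and 0.069 without WT replicate 2. Cat, the peroxisomal catalase, had log2 levels of 11.10, 11.12 and 10.88 in WT and 11.05, 10.62 and 10.90 in the knockout. The groups of Cat overlapped and the difference was -0.18 (95% interval -0.49 to 0.14), with knockout replicate 2 the lowest array, without which it was -0.059.

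The 4 genes of the glutathione peroxidase family among the members, named for the reduction of peroxides with glutathione, all had positive differences. Outside the list of members, Gpx2, Gpx5, Gpx6 and Gpx8 were at -0.26, -0.27, -0.10 and -0.011, all with overlapping groups. Gpx4, the enzyme that repairs lipid peroxides in membranes and restrains ferroptosis, was at 7.61, 7.30 and 7.67 in WT and 7.92, 7.98 and 7.80 in the knockout. Each knockout array was above each WT array, and the difference of 0.38 (SE 0.13, limma adjusted p = 0.515) missed the threshold over all genes. Without WT replicate 2 it was 0.26. Gpx7, a peroxidase of the endoplasmic reticulum, was at 7.02, 6.93 and 7.16 in WT and 7.33, 7.44 and 7.16 in the knockout. Knockout replicate 3 and WT replicate 3 were level, so these groups overlapped narrowly, with a difference of 0.27 (limma adjusted p = 0.613). Gpx3, the secreted plasma peroxidase, was at 6.35, 6.31 and 6.31 in WT and 6.62, 6.38 and 6.50 in the knockout. Its WT arrays were close together and all knockout arrays were above them, by a mean of 0.17 (limma adjusted p = 0.737), or 0.11 without knockout replicate 1. Gpx1, the abundant cytosolic peroxidase, had overlapping groups and a difference of 0.10 (95% interval -0.14 to 0.34), which was 0.040 without WT replicate 2.

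The peroxiredoxins, thiol peroxidases that thioredoxin reduces, included no member at an unadjusted p under 0.05. Prdx2, the cytosolic form that is abundant in red cells, differed by 0.29 (95% interval -0.012 to 0.59). Prdx3, the mitochondrial form, differed by 0.31 (95% interval -0.033 to 0.65), and knockout replicate 2 was the highest array for both. Without it they were 0.19 and 0.20. Prdx4, the form of the endoplasmic reticulum, differed by 0.074, and its sign turned without WT replicate 2, where it was -0.11, and without knockout replicate 2, where it was -0.027. Srxn1, the sulfiredoxin that reactivates over-oxidised peroxiredoxins and a textbook NRF2 target, differed by -0.043 (95% interval -0.26 to 0.18). All 6 arrays of Srxn1 lay between 7.46 and 7.56.

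Among the members of the thioredoxin system the carriers and reductases had positive differences and the inhibitor a negative one. Of 6 further thioredoxin-like genes 5 had positive differences, and the reductase Txnrd3 was at -0.098. Txn1, the cytosolic thioredoxin, was at 11.82, 11.52 and 11.92 in WT and 12.01, 11.95 and 12.03 in the knockout. The knockout arrays were all higher than the WT arrays, the closest being WT replicate 3 and knockout replicate 2, and the difference was 0.24 (SE 0.13, limma adjusted p = 0.666), or 0.13 without WT replicate 2. Txn2, the mitochondrial thioredoxin, was at 8.78, 8.64 and 8.81 in WT and 8.83, 8.90 and 8.83 in the knockout, which again did not overlap although the difference was only 0.11 (limma adjusted p = 0.853), and 0.061 without WT replicate 2. The reductases Txnrd1 of the cytosol and Txnrd2 of mitochondria differed by 0.15 and 0.11, with overlapping groups, and by 0.077 without knockout replicate 2 and 0.053 without WT replicate 3. Txnip, which binds and inhibits thioredoxin and is known as a regulator of stem cell quiescence, differed by -0.19 (95% interval -0.53 to 0.15), with WT replicate 2 the highest array, and by -0.071 without it.

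**Figure D2:**
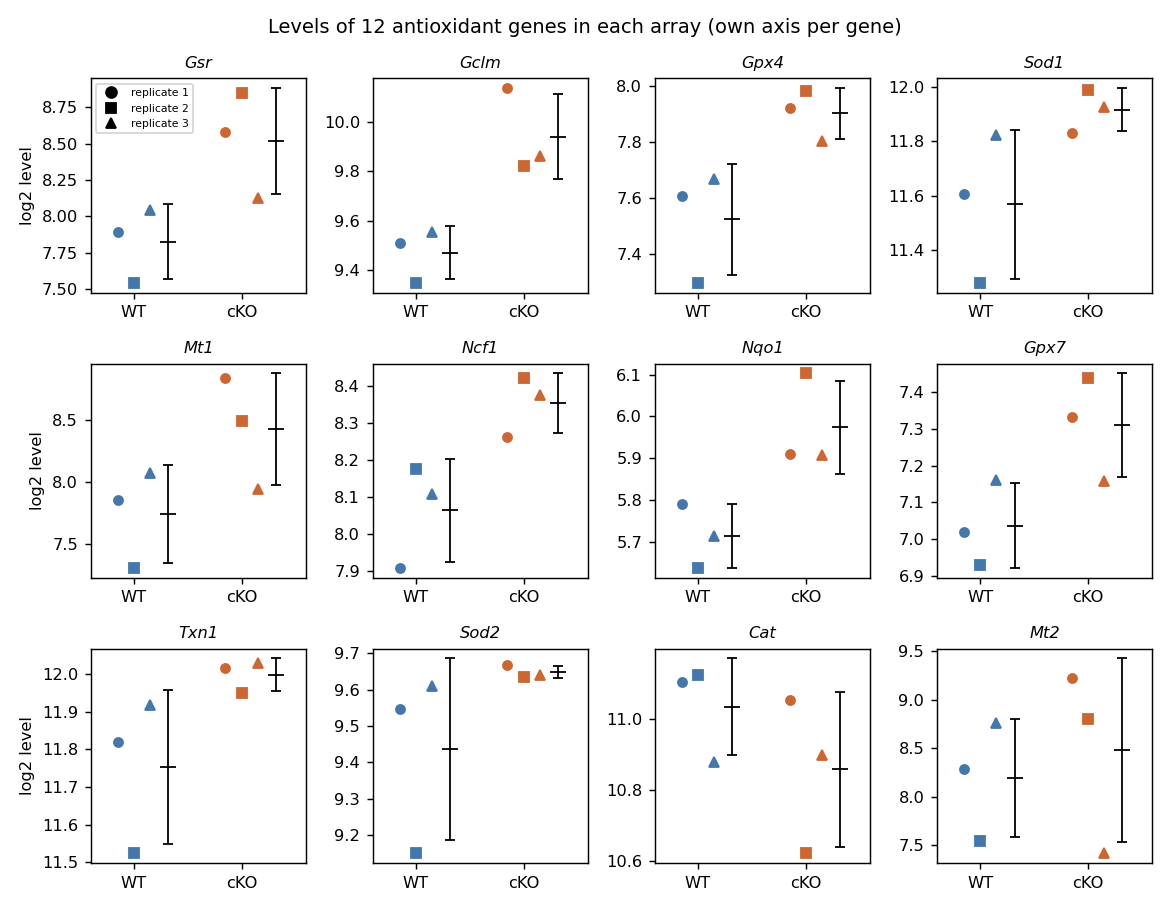
Log2 level of 12 antioxidant genes on each array, each gene on its own axis, with WT in blue, knockout in orange, the replicate number as symbol and the mean with SD (n = 3) in black. The WT and knockout points do not overlap for Gsr, Gclm, Gpx4, Sod1, Ncf1, Nqo1, Txn1 and Sod2, and overlap for Mt1, Gpx7, Cat and Mt2.

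Glutathione synthesis and recycling held the 2 members at an unadjusted p under 0.05 in every fit with 1 array left out. Gclm, the modifier subunit of the ligase that carries out the rate-limiting step of glutathione synthesis, was at 9.51, 9.35 and 9.55 in WT and 10.14, 9.82 and 9.86 in the knockout. The groups were well apart, with knockout replicate 1 the highest array. The log2 difference of Gclm was 0.47 (SE 0.12, 95% interval 0.19 to 0.75, limma adjusted p = 0.365), and it ranged from 0.37 to 0.53 with 1 array left out. Its catalytic partner Gclc was at 8.47, 8.58 and 8.52 in WT and 8.35, 8.55 and 8.47 in the knockout. The groups of Gclc overlapped, with a difference of -0.065 (95% interval -0.31 to 0.17), which was -0.013 without knockout replicate 1 and -0.035 without WT replicate 2. Gsr, the reductase that regenerates glutathione from its oxidised form, was at 7.89, 7.54 and 8.04 in WT and 8.58, 8.85 and 8.13 in the knockout. Knockout replicate 2 was the highest array and knockout replicate 3 stood just above WT replicate 3. The log2 difference of Gsr was 0.69 (SE 0.20, 95% interval 0.24 to 1.15, limma adjusted p = 0.423), with 0.53 to 0.89 when 1 array was left out. Gss, which joins the third amino acid of glutathione, and Glrx, the glutaredoxin that removes glutathione from proteins, differed by 0.050 and 0.080 with overlapping groups. The difference of Gss turned negative without WT replicate 2, at -0.0081, without knockout replicate 1, at -0.049, and with centring on the brighter genes, at -0.0058. That of Glrx shrank to 0.013 when WT replicate 2 was left out, and to 0.017 and 0.041 when knockout replicates 1 and 3 were.

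The glutathione transferases, which conjugate glutathione to electrophiles, had wide spreads between arrays. Gstm1 of the mu class differed by 0.36 (95% interval -0.034 to 0.76), Gstp1 of the pi class by 0.15 (95% interval -0.28 to 0.58) and the microsomal Mgst1 by 0.14 (95% interval -0.27 to 0.55). Knockout replicate 1 was the highest array and WT replicate 2 the lowest for all 3. Without knockout replicate 1 Gstm1 stood at 0.19, Gstp1 at 0.0065 and Mgst1 at -0.0015. Without WT replicate 2 Gstp1 stood at 0.034 and Mgst1 at -0.028, and without WT replicate 3 Gstp1 stood at 0.083. Transferases of one class are close in sequence, and probe sets may not separate them.

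In the NRF2 pathway the differences of the regulators Nfe2l2 and Keap1 were near 0, and those of the enzymes Nqo1 and Hmox1 were positive but not called, while the NRF2 target Srxn1, above, was at -0.043. Nfe2l2, which encodes NRF2, was at 9.31, 9.36 and 9.34 in WT and 9.49, 9.31 and 9.45 in the knockout, and the groups overlapped. Its difference was 0.085 (95% interval -0.15 to 0.32), and 0.047 without knockout replicate 1. Keap1, its inhibitor, was at 6.75, 6.68 and 7.04 in WT and 6.79, 6.99 and 6.70 in the knockout by the brighter of its 2 probe sets. The difference of Keap1 was 0.0027 (95% interval -0.30 to 0.31), that of the dimmer probe set -0.20 (SE 0.14), and the mean of both -0.10. Keap1 also had a negative difference with array weights, a further quantile normalization and centring on the brighter genes. Nqo1, the quinone reductase used as a standard readout of NRF2, was at 5.79, 5.64 and 5.71 in WT and 5.91, 6.10 and 5.91 in the knockout. Every knockout array exceeded every WT array, by a mean of 0.26 (SE 0.11, limma adjusted p = 0.593), or 0.20 without knockout replicate 2. The unadjusted p of Nqo1 by limma was under 0.05 in only 1 of the 6 fits with 1 array left out. Its mean level lay below the median level of all genes, 6.29. Hmox1, the haem oxygenase that degrades free haem, differed by 0.42 (95% interval -0.17 to 1.02), with knockout replicate 1 highest, WT replicate 2 lowest and WT replicate 1 above both other knockout arrays. Its difference was 0.17 without WT replicate 2 and 0.18 without knockout replicate 1.

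The metallothioneins, small cysteine-rich proteins that bind zinc and scavenge oxidants, had wide spreads between arrays of one group. Mt1 was at 7.86, 7.31 and 8.07 in WT and 8.84, 8.49 and 7.95 in the knockout. WT replicate 3 lay above knockout replicate 3, so the groups overlapped despite a difference of 0.68 (SE 0.25, limma adjusted p = 0.556). The neighbouring gene Mt2 was at 8.28, 7.54 and 8.76 in WT and 9.22, 8.80 and 7.42 in the knockout. Knockout replicate 3 was the lowest of the 6 arrays and knockout replicate 1 the highest, and the difference was 0.29 (95% interval -0.74 to 1.31). With 1 array left out Mt2 ranged from -0.085 to 0.82, below 0 without WT replicate 2 and without knockout replicate 1. For both genes WT replicate 2 was below the other WT arrays and knockout replicate 3 below the other knockout arrays.

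The NADPH oxidase subunits, which serve the production of superoxide by phagocytes, were measured for 2 members, both with positive differences. Of 10 further genes of this family, 4 had positive differences. Among the others, Cybb was at -0.63 (95% interval -1.47 to 0.21), with knockout replicate 3 its lowest array at 7.02, and Ncf4 was at -0.14. Ncf1, the cytosolic organiser p47phox, was at 7.91, 8.18 and 8.11 in WT and 8.26, 8.42 and 8.38 in the knockout. The knockout arrays were all above the WT arrays, with a difference of 0.29 (SE 0.11, limma adjusted p = 0.578). WT replicate 1 was here the lowest array, and without WT replicate 2 the difference was 0.35. Without WT replicate 1 it was 0.21. The unadjusted p of Ncf1 by limma was under 0.05 in only 2 of the 6 fits with 1 array left out. They were those without WT replicate 2 and without knockout replicate 1. Cyba, the membrane subunit p22phox, differed by 0.063 (95% interval -0.21 to 0.34), and by -0.0082 without WT replicate 2. Leaving out knockout replicates 1 and 2 in turn gave 0.037 and 0.024.

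**Figure D3:**
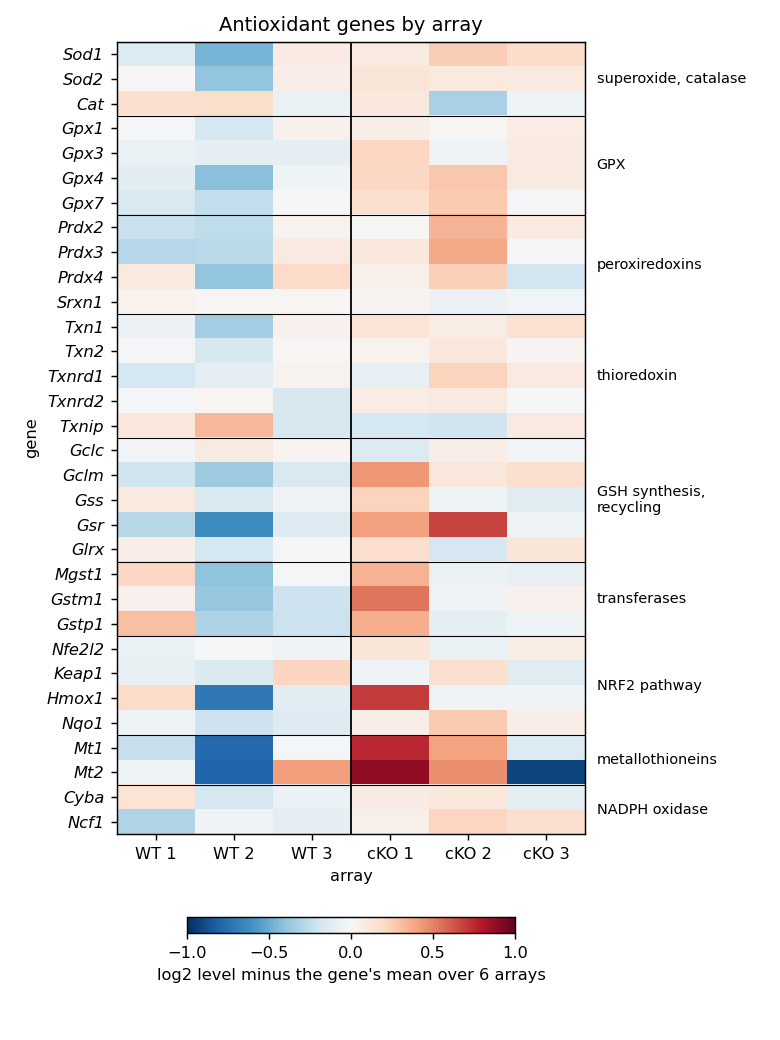
Log2 level of each of the 32 antioxidant genes on each of the 6 arrays, minus the gene's mean over the arrays, grouped by role (red above the mean, blue below). WT replicate 2 is the lowest array for 21 genes, and knockout replicates 1 and 2 are the highest for 12 genes each.

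The arrays of one group differed from each other across the list. WT replicate 2 was the lowest array for 21 of the 32 members (65.6%), beside 23% of all genes. Knockout replicates 1 and 2 were the highest for 12 members each, beside 20.5% and 20.4% of all genes. The median over the members of the log2 level minus the gene's mean was -0.039, -0.22 and -0.014 on the WT arrays and 0.11, 0.10 and 0.014 on the knockout arrays. The group ranges of these medians did not overlap, but knockout replicate 3 was within 0.027 of WT replicate 3.

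By the median over each list, WT replicate 2 was also the lowest array for genes of the cell cycle, respiration and the primary granules of neutrophils. For 19 genes of G2 and mitosis the array medians were -0.17, -0.88 and 0.20 on the WT arrays and 0.40, 0.46 and 0.037 on the knockout arrays. For 24 subunits of oxidative phosphorylation, the main mitochondrial source of superoxide, they were -0.091, -0.34 and 0.0096 on the WT arrays and 0.068, 0.30 and 0.036 on the knockout arrays. For 6 primary granule genes of neutrophil progenitors they were -0.52, -0.74 and -0.20 on the WT arrays and 0.49, 0.73 and 0.18 on the knockout arrays. The groups overlapped for G2 and mitosis, where WT replicate 3 lay above knockout replicate 3, and did not for the other lists. All 19, 24 and 6 of these genes had positive differences, beside 54.7% of all genes, with medians of 0.55, 0.27 and 1.00. None was called by limma, where 0.0721% of all genes were called. An unadjusted p under 0.05 by limma was found for 10 (52.6%), 3 (12.5%) and 6 (100%) of them, beside 8.11% of all genes. The brightest of the first list were Ccnb2 and Mki67, at 0.50 and 0.63, and of the second Atp5b and Cox6a1, at 0.25 and 0.35. The part of these genes in the antioxidant values was not tested.

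**Figure D4:**
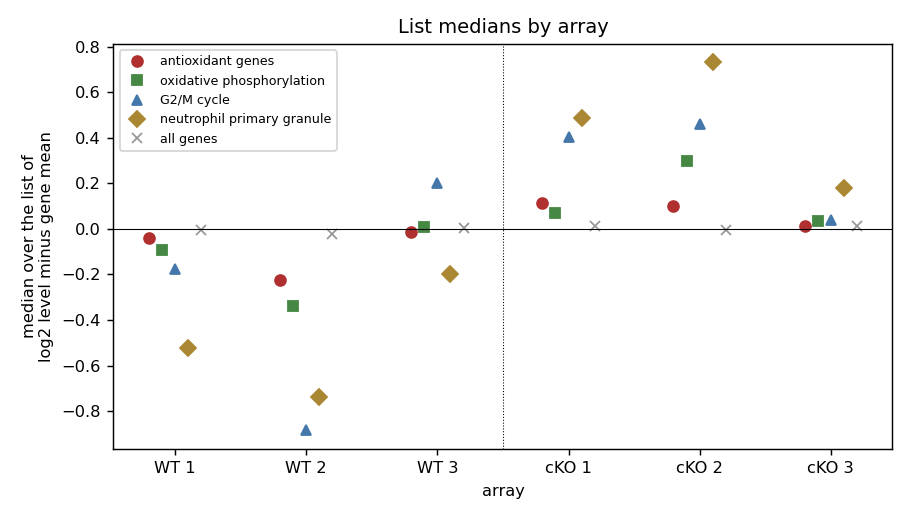
Median over each gene list of the log2 level minus the gene's mean over 6 arrays, by array. The antioxidant genes (red) run from -0.22 in WT replicate 2 to 0.11 in knockout replicate 1, and all genes (grey) stay between -0.023 and 0.014.

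Markers of other cells were read beside the members, since myeloid cells are known for NADPH oxidase and red cell precursors for catalase and Prdx2. In such bulk samples fewer cells of a type and less RNA per cell cannot be told apart, and array signals carry no detection call. The summed linear signal of the 6 primary granule genes was 6859 to 10390 in WT and 14490 to 19780 in the knockout, with Elane and Ctsg the brightest, at differences of 1.21 and 1.15. That of 8 mature neutrophil genes was 1181 to 5417 in WT and 760 to 1422 in the knockout, with Ngp at -2.44 and S100a8 at -0.52 the brightest, with 1 of 8 differences positive and a median of -0.63. For 8 monocyte and macrophage genes it was 1837 to 2970 in WT and 1860 to 2288 in the knockout, with Lyz2 at -0.27 and Cd68 at -0.11, with 3 of 8 differences positive and a median of -0.13. The 6 measured erythroid genes of 10 summed to 3017 to 4423 in WT and 3641 to 6086 in the knockout, with Car2 at 0.33 and Car1 at 0.56 the brightest, but with 3 of 6 differences positive and a median of 0.010, Klf1 being at -0.13, Tfrc at -0.18 and Slc4a1 at -0.060. The 7 measured B and plasma cell genes of 9 summed to 17750 to 27990 in WT and 10710 to 18830 in the knockout, with Ighm at -0.64 and Jchain at -0.90, with 0 of 7 differences positive and a median of -0.64. Among 7 mast cell and basophil genes, summing to 1283 to 1729 in WT and 1907 to 2737 in the knockout, Hdc was called (log2 2.32, limma adjusted p = 0.0309), and Cpa3 and Gata2, the brightest, differed by 0.45 and 0.34, with 6 of 7 differences positive and a median of 0.38. The 7 T and NK cell genes summed to 1158 to 1745 in WT and 1887 to 2578 in the knockout, with Nkg7, by far the brightest, at 0.68 and Cd4 at -0.089, but with 2 of 7 differences positive and a median of -0.066. The 5 measured megakaryocyte genes of 6 summed to 1110 to 1197 in WT and 1292 to 1419 in the knockout, with Gp9 at 0.31 and Itga2b at 0.13, with 4 of 5 differences positive and a median of 0.18. Of the LSK markers, Cd34 differed by -0.021, Flt3 by -0.42, Kit by -0.22 and Procr by -0.025. The part of these cells in the antioxidant values was not tested.

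Further genes of the same pathways, 99 listed and 87 measured, were near the background. None was called by limma, 51 of 87 had a positive difference (58.6%), and the median was 0.032. At an unadjusted p under 0.05 there were 4 higher and 2 lower (6.90%, beside 8.11% of all genes). By role, 15 of 19 NRF2 regulators and targets, 10 of 16 further transferases, 6 of 7 genes of NADPH supply, 6 of 12 of glutathione synthesis and turnover, 5 of 6 thioredoxin-like genes and 3 of 4 methionine sulfoxide reductases had positive differences. The counts were 4 of 10 for the further NADPH oxidase genes, 1 of 6 for the further dismutase and peroxidase genes, 1 of 3 for metallothionein and zinc genes and 0 of 4 for Foxo1, Foxo3, Foxo4 and Atm, regulators known to keep oxidants low in stem cells. The last 4 had a median of -0.029.

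The 6 wider genes at an unadjusted p under 0.05 all had groups that did not overlap. Gstm2, a mu class transferase close in sequence to Gstm1, was at 4.52, 4.64 and 4.30 in WT and 5.31, 4.97 and 5.37 in the knockout, a difference of 0.73 (SE 0.14, limma adjusted p = 0.193). Sesn2, a sestrin of the p53 and oxidant responses, was at 6.36, 6.54 and 6.39 in WT and 6.91, 6.80 and 6.75 in the knockout, a difference of 0.39 (limma adjusted p = 0.394). Both were thus higher on every knockout array. Msrb1, a selenoprotein that repairs oxidised methionine, was at 8.02, 7.44 and 7.91 in WT and 8.91, 8.46 and 8.05 in the knockout, a difference of 0.68 (limma adjusted p = 0.508). The omega class transferase Gsto2 was at 5.85, 5.67 and 6.01 in WT and 6.28, 6.41 and 6.09 in the knockout, a difference of 0.42. Lower on every knockout array were Mgst2 and Chac1. Mgst2, a microsomal transferase that also makes leukotriene C4, was at 6.83, 6.96 and 7.04 in WT and 6.34, 6.70 and 6.16 in the knockout, a difference of -0.54 (limma adjusted p = 0.400). Chac1, which breaks glutathione down and is induced through ATF4, was at 6.38, 6.63 and 6.22 in WT and 6.004, 6.07 and 5.96 in the knockout, a difference of -0.40. Chac1, Gstm2, Gsto2, Mgst2 and Sesn2 kept an unadjusted p under 0.05 in each of the 6 fits with 1 array left out, and Msrb1 lost it without WT replicate 2 and without knockout replicate 1. By mean over the 6 arrays Chac1, Gstm2 and Gsto2 lay below the median level of all genes, 6.29. A fit limited to genes above that level therefore left them out, and Mgst2, Sesn2 and Msrb1 kept such a p in it.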

How the data were processed

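LSK cells of 3 WT and 3 knockout samples were profiled, 1 array each. The deposited values are log2 probe set signals made by the authors with RMA and the R package oligo, per the submitters' processing notes, without versions. Its background correction and quantile step shrink differences of dim probe sets and give all arrays a like distribution. No source used here gives the summary level or the genome build. Of 41345 probe sets, GEO's platform annotation gave 1 symbol to 23521, several to 1814 and none to 16010. Only the first kind was used, with the brightest probe set by mean over 6 arrays per gene, which left 22180 genes and no filter on low values. The entrez numbers of 23328 probe sets were found in RefSeq's table of GRCm38.p6, with 0 symbols changed.

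Knockout and WT were compared by limma 3.58.1 in R 4.3.3 (lmFit and eBayes, group as the only term, all 6 arrays), with Benjamini-Hochberg adjustment over all genes and a threshold of 0.05. The SE and the 95% interval are those of the moderated fit. The number of arrays limits the precision. The test was checked on simulated data. The members, the wider lists and the marker lists were chosen with earlier results of these data known. Named were Ctcf, all members, the wider genes at an unadjusted p under 0.05 with groups that do not overlap, and of each marker list the 2 brightest and any called. Values by array are given for members at an unadjusted p under 0.05 or without overlap, and for Nfe2l2, Keap1, Sod1, Sod2, Cat, Txn1, Gclc, Mt1 and Mt2. Kit, Procr, Klf1, Tfrc, Slc4a1, Foxo1, Foxo3, Foxo4 and Atm, the promoters and their motifs were chosen after values were seen. So were Gpx2, Gpx5, Gpx6, Gpx8, Cybb, Ncf4 and Txnrd3. Alternatives were a threshold of 0.1, trend and robust settings in eBayes, array weights, brighter genes only, further quantile normalization, centring, probe set means, a replicate block and leaving out single arrays.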

Additional observations from a re-analysis of the deposited data

How the results depend on the processing

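None of the 32 members was called under any alternative run (31 of them in the fit of brighter genes), and the lowest adjusted p by limma over all of them was 0.243, so the absence of calls says little about single genes: with 3 arrays per group, only 16 of 22180 genes were called. The members' median, 0.16, was 0.11 to 0.23 with 1 array left out, and 0.13 with array weights, 0.13 with quantile normalization and 0.11 with centring on the brighter genes, which put the median of all genes at -0.038. The 8 members at an unadjusted p under 0.05 became 5 with array weights (15.6%, beside 8.15% of all genes), 5 with quantile normalization (15.6%, beside 7.98% of all genes), 4 with centring (12.5%, beside 8.07% of all genes) and 3 to 9 with 1 array left out (9.38% to 28.1%, beside 6.11% to 8.88% of all genes). Of the 8, Gclm and Gsr had such a p in 6 of 6 of these fits, Gpx4 in 4, Mt1 in 3, Gpx7 and Ncf1 in 2, Sod1 and Nqo1 in 1. The 16 called genes became 25 with trend and robust settings, 26 at a threshold of 0.1 and 0 to 8 with 1 array left out; without knockout replicate 1, where limma called 0, 1725 genes had an unadjusted p under 0.05. The 4 called genes without WT replicate 1 and the 4 without knockout replicate 3 compare with 5, 8 and 7 without WT replicate 2, WT replicate 3 and knockout replicate 2. With the replicate block 7 genes were called and 7 members had an unadjusted p under 0.05 (21.9%, beside 8.33% of all genes). Deviations of same-numbered arrays from their group means correlated at 0.294, 0.0155 and -0.14 across genes, and not every array correlated best with its own number. With 3 arrays per group, whose deviations sum to 0, these values cannot decide if the numbers pair the samples. The wider genes' median was 0.063 among brighter genes, 0.0035 with quantile normalization and -0.023 with centring. Differences near 0 changed sign: Keap1 was -0.039 with array weights, -0.023 with quantile normalization, -0.053 with centring, -0.10 with the mean of probe sets and -0.078 to 0.11 with 1 array left out. Prdx4 was -0.013 with array weights and -0.11 to 0.19 with 1 array left out, and Gss -0.0058 with centring and -0.049 to 0.11. Ranges with 1 array left out also crossed 0 for Mgst1 (-0.028 to 0.28), Mt2 (-0.085 to 0.82) and Cyba (-0.0082 to 0.15). The other 26 members kept their sign under each alternative in which they were tested, which for Nqo1 leaves out the fit of brighter genes. The causes of these shifts were not tested.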
